A study of Drosophila melanogaster with 3 samples.

Results

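The genes described here are 10 regulators of the fly cell cycle, taken by name and in full from the 13968 protein-coding genes of the annotation. CycD, CycE, E2f1, Dp and dap act at entry into S phase (the G1/S genes, 5 genes). CycA, CycB, CycB3 and stg act at or around mitosis. They are grouped here with fzr, which acts on mitotic cyclins in G1 (the mitotic genes, 5 genes). All 10 symbols matched a single annotated gene. The data came from ChIP-seq, in which chromatin is sheared, fragments bound by a chosen protein are captured with an antibody, and the captured DNA is sequenced. Whole Drosophila melanogaster embryos of mixed sex, aged 0 to 24 h, formed 1 group with 3 biological replicates. Every embryo came from a stable transgenic line that expressed a protein with green fluorescent protein (GFP) at its carboxyl end, and the description names an antibody against GFP. The labels give the tagged protein as CG45071 in the description and as CG6854 in the antibody field, and the source field names CTPsyn, the enzyme that makes CTP. No untagged or mock embryos were analysed here, and the whole embryo mixes dividing and arrested cells, so a peak cannot be assigned to a cell type or to a phase of the cycle.

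The cell cycle is driven by kinases that are active only when bound to a cyclin. Cyclin D with Cdk4 promotes growth, and Cyclin E with Cdk2 starts DNA replication. E2f1 and Dp form a transcription factor that switches on genes for S phase, and dacapo (dap) blocks Cyclin E with Cdk2 when cells leave the cycle. Cyclins A, B and B3 work with Cdk1 in mitosis, string (stg) is the phosphatase that activates Cdk1, and fizzy-related (fzr) directs the destruction of mitotic cyclins in G1. In the early embryo the first divisions run on maternal products, and transcription of stg later sets the time of each division.

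Each replicate had a list of 30000 peaks, the reads of all replicates together gave a pooled list of 30000, and 3545 of these formed the authors' optimal list, chosen by the irreproducible discovery rate (IDR). The fixed length means that low entries hold background as well as binding. The optimal peaks were exactly the 3545 pooled peaks with the highest signal, from 2397.3 down to 113.7. A rank below is the place of a peak in its list by that signal, the value the authors' peak caller gave, with 1 the strongest. Signals are comparable only within a list, so replicates were set side by side by rank. The top list of a replicate is its 3545 highest peaks. Top lists held 75.7% of all optimal peaks in replicate 1, 83.4% in replicate 2 and 82.1% in replicate 3. Read depth was unknown.

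The summit, the point of highest signal in a peak, and the 50 bases on either side of it are printed for 3 genes. They show the strongest optimal peak near CycE and near fzr, and an upstream and an intronic peak near E2f1. Coordinates are on dm6, and each window reads 5′ to 3′ on the minus strand, the strand that carries these 3 genes. The summit is base 51, and capitals mark CGATA, a core of the site known for the boundary factor BEAF-32 and for DREF, a factor known to activate replication genes. The match is a description of the letters only.
CycE, intron upstream of the 2nd start site, chr2L:15746989-15747089: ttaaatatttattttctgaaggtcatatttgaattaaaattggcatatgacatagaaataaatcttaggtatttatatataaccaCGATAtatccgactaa
E2f1, upstream of the 1st start site, chr3R:21662581-21662681: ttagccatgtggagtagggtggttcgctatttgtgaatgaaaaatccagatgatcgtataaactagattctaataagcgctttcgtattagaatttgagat
E2f1, intron past the 5th start site, chr3R:21627880-21627980: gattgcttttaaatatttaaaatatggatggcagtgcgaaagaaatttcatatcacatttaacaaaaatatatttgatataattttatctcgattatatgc
fzr, past the 3′ end, chrX:4666963-4667063: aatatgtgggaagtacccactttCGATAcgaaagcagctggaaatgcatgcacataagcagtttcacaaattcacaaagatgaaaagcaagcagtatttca
The CycE window and the intronic E2f1 window each had 22.8% G and C, the fzr window 38.6% and the upstream E2f1 window 35.6%. Neither E2f1 window held any of the 10 motifs that were searched.

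The 5 G1/S genes held 9 optimal peaks in the gene body and 5 kb either side, and the 5 mitotic genes held 2. The nearest start site of any gene was that of the member for 5 of the 9 and for 1 of the 2. Optimal summits within 500 bp of an annotated start site of the gene itself occurred at CycE, Dp and E2f1 and at none of the mitotic genes. The mitotic genes nevertheless had the highest-ranked peaks of the set, at rank 112 for fzr and 125 for CycB, and both lay past the 3′ end of the gene. An optimal summit within 500 bp of a start site was thus found at 3 of these 10 genes, against 14.1% of all protein-coding genes (1968 genes). An optimal summit anywhere in the gene or 5 kb either side was found at 5 of the 10 (CycE, E2f1, Dp, CycB and fzr), against 39.4% of all protein-coding genes (5500 genes). That share was not matched for gene length. The 10 genes are 2855 to 40568 bp long, against a median of 2164 bp, so their windows are wider than the median one. Over the whole pooled list, 9 of the 10 had a summit within 500 bp of a start site, with CycD the exception, against 51.2% of all protein-coding genes (7155 genes). With 10 genes taken by name and 1 group of samples, these counts were not tested.

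**Figure D1:**
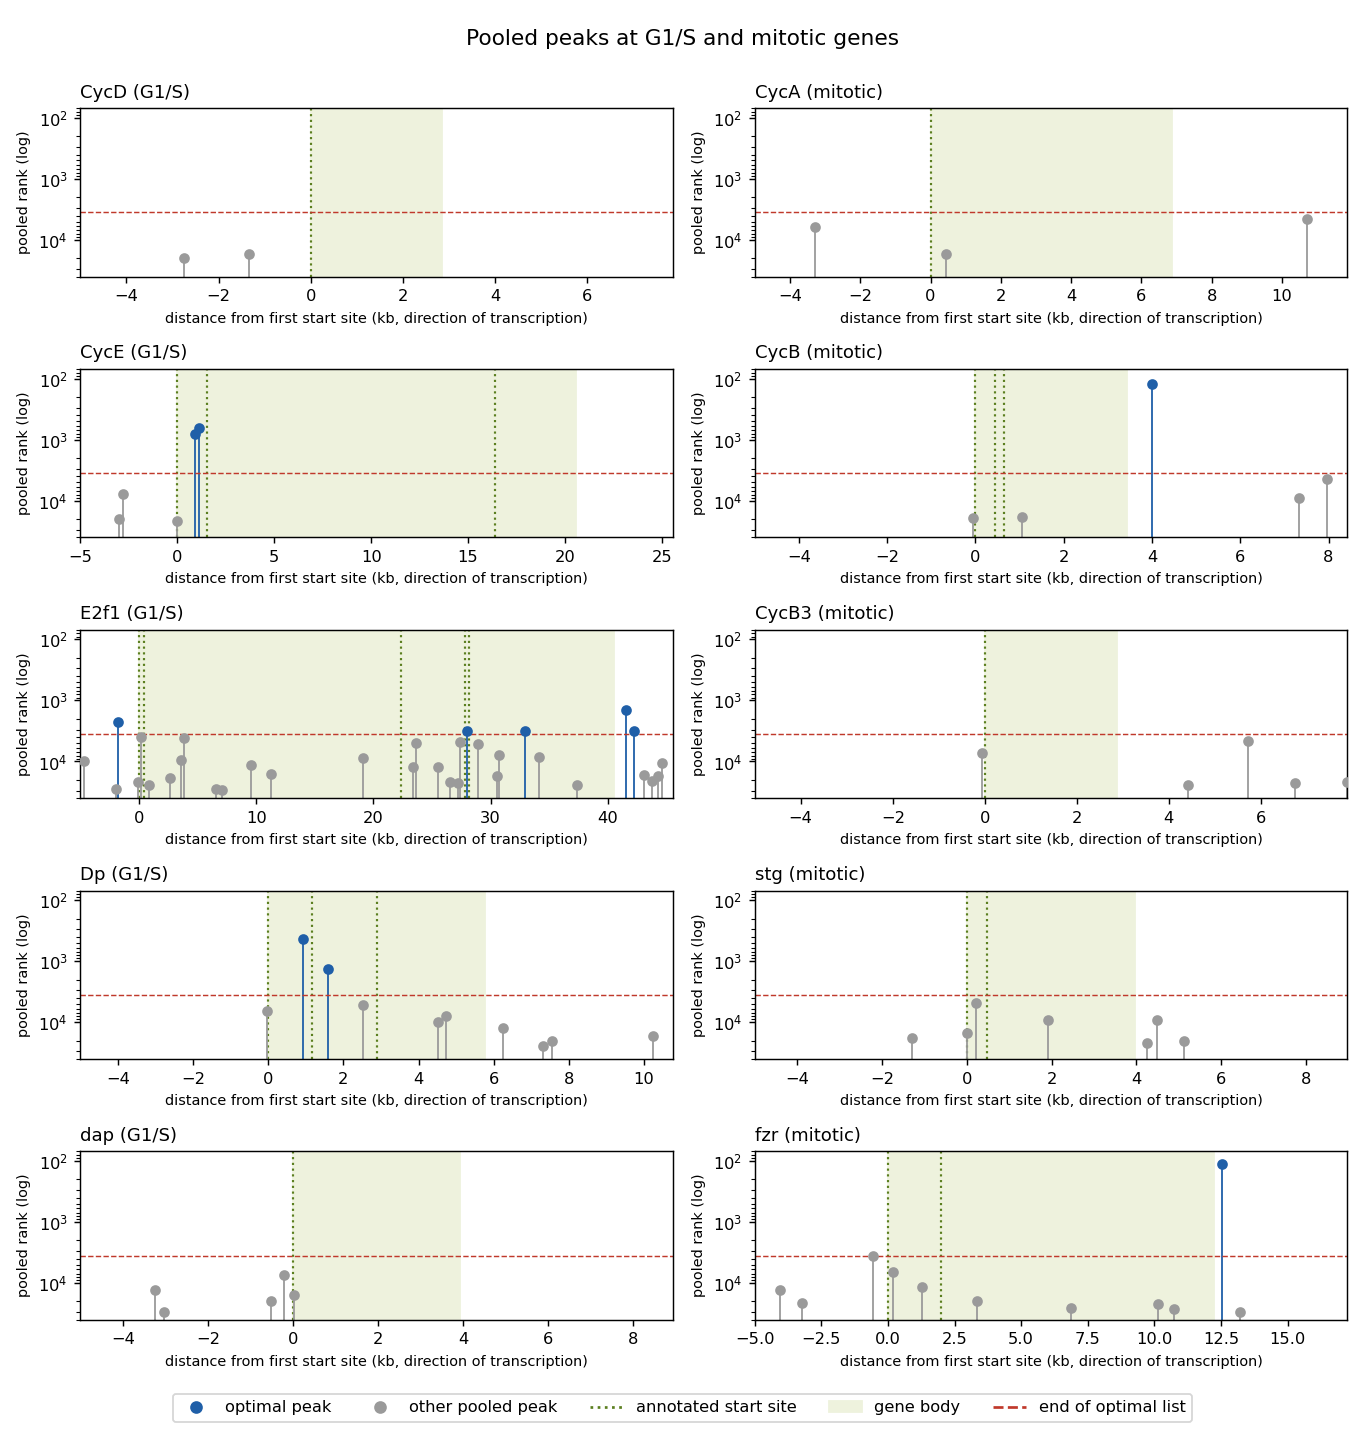
Each panel is 1 gene, with the distance of the summit from the gene's first start site on the horizontal axis (kb, in the direction of transcription) and the pooled rank on a reversed log axis; blue points are optimal peaks, grey points other pooled peaks, dotted lines start sites, shaded boxes the gene body and the dashed line the end of the optimal list at rank 3545. The blue points of CycE and Dp stand inside the gene near the 2nd start site, those of CycB and fzr stand past the gene's end, and E2f1 has 33 pooled peaks spread along its window.

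CycE (FBgn0010382, 2L:15727581-15748150, minus strand, 20570 bp) encodes Cyclin E and has 3 annotated start sites. Its 2 optimal peaks overlapped each other, with summits 213 bp apart in the intron between the 1st and the 2nd start site. The summit at rank 647 (signal 288.2) stood at -429 bp from the 2nd start site, and replicates 1, 2 and 3 ranked their nearest peak 412, 789 and 611. The edge of lncRNA:CR44974 lay 39 bp from this summit, and the nearest start of any gene was that of CycE. The summit at rank 807 (signal 257.8) stood at -642 bp, with replicate ranks 412, 1261 and 1039. Replicate 1 had 1 peak where the other replicates had 2, so the rank of 412 is the same peak in both. That summit stood at -535 bp, just beyond the 500 bp limit, so replicate 1 had no summit counted at a start of CycE. All 3 replicates placed this intron well inside their top lists, and the spread between them was under 2-fold for the stronger summit. The other start sites of CycE were weak. At the 1st start site a pooled peak ranked 21639, seen in replicate 2 only (rank 14125), and no list had a summit within 500 bp of the 3rd start site, 16366 bp into the gene. Upstream, a pooled peak at rank 7694 lay 129 bp inside the neighbouring gene ND-B17.

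E2f1 (FBgn0011766, 3R:21620304-21660871, minus strand) encodes the activating E2F subunit. Its length of 40568 bp is reached or passed by 3.29% of protein-coding genes, and it has 5 start sites. Its window held 33 pooled and 5 optimal peaks, and 1.03% of protein-coding genes (144) held 5 optimal peaks or more in a window. Per 10 kb the window had 0.989 optimal and 6.53 pooled peaks, against 0.38 and 2.8 in the windows of all protein-coding genes. Peak density was above that of the average window, in a window of 50.6 kb, the longest of the 10. Only 1 of the 5 optimal summits lay within 500 bp of a start site of E2f1, and only 2 lay inside the gene.

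The peak at E2f1's own promoters was close to the end of the optimal list. It ranked 3127 (signal 121.7), in the 5′ untranslated region, at +214 bp from the 4th start site and -166 bp from the 5th. The start of an antisense RNA, asRNA:CR46055, lay 154 bp from this summit, nearer than any start of E2f1. Replicates 1, 2 and 3 ranked it 4785, 3351 and 2126, so that only replicates 2 and 3 held it in their top lists. The intronic peak printed above ranked 3137 (signal 121.4), at +4763 bp from the 5th start site, with replicate ranks 8469, 2593 and 3883. It was in the top list of replicate 2 alone. At the 1st start site the best pooled peak ranked 4026, at +179 bp, just outside the optimal list, and the replicates ranked it 6284, 2972 and 5265.

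The other 3 optimal peaks in the E2f1 window were nearer to starts of its neighbours. The summit at rank 1451 (signal 187.1) lay 991 bp past the 3′ end of E2f1 and +8 bp from a start site of InR, the insulin receptor, and replicates ranked it 960, 1422 and 2677. All 3 top lists held it, which was so for none of the other optimal peaks in this window. A second peak in InR ranked 3120, at +428 bp from the nearest start of InR, with replicate ranks 3594, 7400 and 1397. The upstream peak printed above ranked 2263 (signal 144.9). Its summit stood at -1760 bp from the first start site of E2f1 and +341 bp from that of Archease, in an intron of Archease, with replicate ranks 4861, 1377 and 5379.

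Dp (FBgn0011763, 2R:13222433-13228202, plus strand, 5770 bp) encodes the partner of E2f1 and has 3 start sites. Both of its optimal peaks lay in introns within 500 bp of the 2nd start site, on either side of it. The stronger ranked 436 (signal 350.5) at -242 bp, with ranks 1927, 290 and 386 in replicates 1, 2 and 3. The weaker ranked 1326 (signal 197.0) at +434 bp, with ranks 9772, 939 and 942. The edge of lncRNA:CR43918 lay 150 bp from the weaker summit, and the nearest start of any gene was that of Dp. Replicates 2 and 3 were close at both summits, and replicate 1 was far lower at both. The 1st start site had a peak at rank 6481 (-34 bp), with replicate ranks 18784, 3062 and 18639. Its summit lay outside Dp, in a 5′ untranslated region of another gene, although the nearest start was that of Dp. The 3rd start site had a peak at rank 5158 (-374 bp). Dp was the only G1/S gene with a pooled peak within 500 bp of every one of several start sites, and its pooled density of 6.34 per 10 kb was next to that of E2f1.

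The remaining G1/S genes had no optimal peak in their windows. The CDK inhibitor gene dap (FBgn0010316, 2R:9712321-9716256, plus strand, 3936 bp, 1 start site) had 5 pooled peaks. Its best was at rank 7331, at -219 bp from the start, and replicates 1, 2 and 3 ranked their best peak there 8747, 5321 and 12444. All 3 replicates thus had a weak peak near the dap start. CycD (FBgn0010315, X:15906822-15909676, minus strand, 2855 bp, 1 start site) had 2 pooled peaks, at ranks 16799 and 20057, at +139 and +1050 bp from the nearest start of the neighbouring gene Lrp4. CycD was the gene of the 10 with no pooled summit within 500 bp of a start site. Replicate 2 alone had one there, at rank 13062 and -220 bp.

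Of the mitotic genes, fzr and CycB carried the strong peaks. The fzr gene (FBgn0262699, X:4667290-4679537, minus strand, 12248 bp, 2 start sites) had its optimal peak 277 bp past the 3′ end, at X:4666845-4667172, outside any annotated gene. This peak ranked 112 (signal 635.1), and replicates ranked it 213, 121 and 87. Its nearest start site, 313 bp away, belongs to CG3009, which is transcribed away from the summit, so the summit is upstream of that gene. The first start site of fzr had weaker peaks on both sides. The one at -564 bp ranked 3666, just outside the optimal list, with replicate ranks 3512, 5201 and 3489. It lay beyond the 500 bp limit, in a 3′ untranslated region of another gene, and so was not counted at the start. The other, at +186 bp, ranked 6658.

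CycB (FBgn0000405, 2R:22803521-22806948, minus strand, 3428 bp, 3 start sites) had its optimal peak 562 bp past the 3′ end, at 2R:22802845-22803105. It ranked 125 (signal 626.1), with replicate ranks 126, 151 and 98, the closest agreement among the 11 optimal peaks. The summit lay outside both genes, between the 3′ ends of CycB and of blw, with blw 779 bp away. The nearest annotated start was the 3rd of CycB, 3344 bp upstream of the summit, so the peak stood apart from every annotated start. CycB itself had only weak peaks at its starts, at ranks 18973 (-65 bp from the 1st) and 18269 (+405 bp from the 3rd), and replicate 2 had none within 500 bp of any of them.

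The other mitotic genes had no optimal peak in their windows. CycB3 (FBgn0015625, 3R:24867934-24870816, minus strand, 2883 bp, 1 start site) had a pooled peak at rank 7165, -55 bp from its start. Replicate 1 ranked its best peak there 2661, inside its top list, while replicates 2 and 3 gave 9602 and 12220. At stg (FBgn0003525, 3R:29251826-29255800, minus strand, 3975 bp, 2 start sites) the best pooled peak ranked 4772, at +215 bp from the 1st start in the 5′ untranslated region. Replicates 1, 2 and 3 differed widely, with best ranks at a start of 18981, 8055 and 2067. CycA (FBgn0000404, 3L:11826719-11833578, minus strand, 6860 bp, 1 start site) had a peak at rank 17284, +427 bp from its start, with ranks of 16749 in replicate 1 and 12144 in replicate 3. Replicate 2 had no summit within 500 bp of the CycA start. The strongest pooled peaks in the CycB3 and CycA windows belonged by position to neighbours, at rank 4668 upstream of Elal and at rank 4565 at the start of RpL10Ab.

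**Figure D2:**
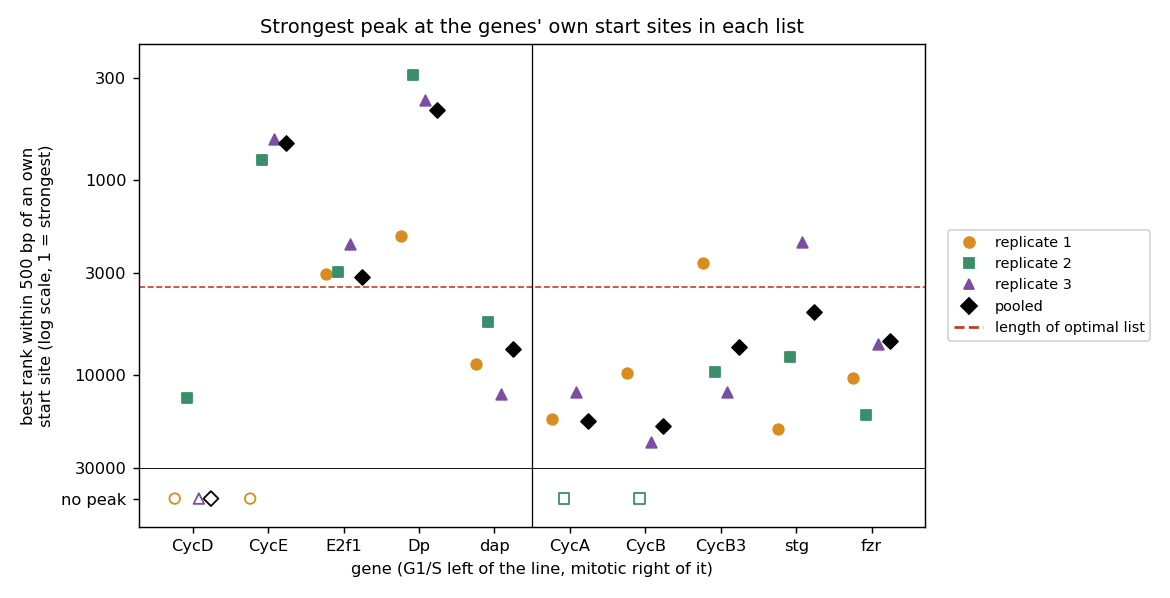
The best rank within 500 bp of any of a gene's own start sites is plotted on a reversed log axis for replicates 1, 2 and 3 and the pooled list, with G1/S genes left of the line and mitotic genes right of it; open symbols mean no peak, and the dashed line is rank 3545. CycE, E2f1 and Dp have pooled points above the line, at 647, 3127 and 436, and CycB3 and stg cross it in 1 replicate each.

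Set side by side at their own starts, the G1/S genes had the higher median rank and the mitotic genes the lower one. The 4 G1/S genes with a pooled peak there had ranks from 436 to 7331, with a median of 1887. The 5 mitotic genes had ranks from 4772 to 18269, with a median of 7165. Over the 7155 protein-coding genes with such a peak, the median was 7576 and the quartiles were 3166 and 14839. Of the mitotic genes, stg, fzr and CycB3 lay between those quartiles and CycA and CycB beyond the weaker one. The 2 groups overlapped, since dap at 7331 ranked below fzr, CycB3 and stg. Medians over genes with a peak leave out CycD, which had none. In each replicate more G1/S than mitotic genes had a top-list peak at their own start, in replicate 1 by only 1 gene. The number of genes with a top-list peak at their own start was 2 of 5 G1/S genes and 1 of 5 mitotic genes in replicate 1, 3 and 0 in replicate 2, and 3 and 1 in replicate 3. The mitotic genes in those counts were CycB3 and stg. In replicate 1, E2f1 was counted through another peak than the optimal one, at rank 3029 and -390 bp from its 4th start. CycE was not counted in replicate 1, since its summit stood at -535 bp. The share of all protein-coding genes with a top-list peak at a start was not counted for single replicates.

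The number of start sites differed between the groups and moved with the result. G1/S genes had 13 start sites and mitotic genes 9, and the median protein-coding gene has 1. CycE, E2f1, Dp and CycB have 3 or more, and the first 3 of these had an optimal peak at a start, against 41.0% of all protein-coding genes with 3 or more (465 of 1133). None of the other 6 genes had one, against 11.7% of all protein-coding genes with 1 or 2 start sites (1503 of 12835). Counted per start site, 4 of 13 in G1/S genes and 0 of 9 in mitotic genes had an optimal summit within 500 bp, against 13.3% of 19630 start sites in all protein-coding genes. Of the 4, CycE and Dp gave 1 each at their 2nd start, and E2f1 gave 2 that share 1 peak. The part of start site number in the difference between the groups was not tested. Pooled summits were within 500 bp of 10 of 13 G1/S and 7 of 9 mitotic start sites, against 51.6% of all 19630.

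By density, the G1/S windows (124 kb) had 0.728 optimal peaks per 10 kb and the mitotic windows (79.4 kb) had 0.252, against 0.38 in all gene windows. Without E2f1 the G1/S value was 0.547. In pooled peaks the groups were closer, at 4.45 per 10 kb for G1/S genes and 3.9 for mitotic genes, and the G1/S value without E2f1 was 3.01, below the mitotic one. The share of pooled peaks that were optimal was 16.4% in G1/S windows (9 of 55), 6.45% in mitotic windows (2 of 31) and 11.8% in the series. For 30 of the 55 pooled peaks in G1/S windows the nearest start site of any gene was that of the member itself, and the same held for 14 of 31 in mitotic windows. The rest, 42 of 86, stood nearer to another gene.

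Of the 9 optimal summits in G1/S windows, 5 were in introns of the gene, 1 in a 5′ untranslated region and 3 outside it. Both optimal summits in mitotic windows were outside the gene. Of the pooled summits, 25 of 55 in G1/S windows and 5 of 31 in mitotic windows were in introns of the gene, and 23 of 55 and 20 of 31 were outside it. The groups were not compared by a test, and 33 of the 55 G1/S summits were in the window of E2f1, the longest gene. Pooled summits within 500 bp of an own start fell evenly, with 10 upstream and 10 downstream of the nearest one.

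The highest of the 3 replicate ranks was 1.54-fold the lowest at CycB, 1.92-fold at the stronger CycE peak, 2.25-fold at the own-start peak of E2f1 and 2.45-fold at fzr. It was 2.79-fold to 5.3-fold at the other E2f1 peaks, 3.06-fold at the weaker CycE peak, and 6.64-fold and 10.4-fold at the Dp peaks. All 3 top lists held 6 of the 11 optimal peaks (54.5%, Wilson 95% interval 28.0 to 78.7%), against 57.2% of all optimal peaks. These were the fzr and CycB peaks, both CycE peaks, the stronger Dp peak and the E2f1-window peak at the InR start. The interval takes the 11 peaks as independent, which they are not. The 2 CycE peaks overlap and share 1 peak of replicate 1, and 5 of the 11 lie in the E2f1 window. Replicate 1 held 6 of the 11, replicate 2 held 10 and replicate 3 held 9. The share in replicate 1 was also the lowest over the whole optimal list, as given above. Of all 86 pooled peaks in the windows, 53 overlapped a peak in every replicate (37 of 55 in G1/S windows and 16 of 31 in mitotic windows), against 46.8% of all pooled peaks. A further 2 of the 86 overlapped none, against 2.92% of all.

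**Figure D3:**
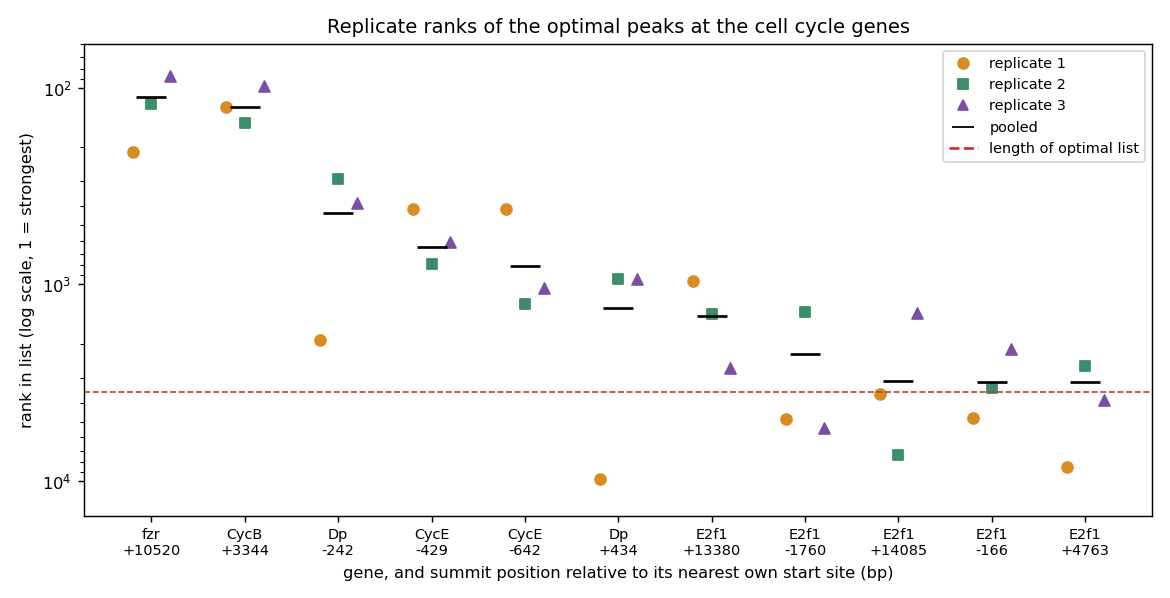
For each of the 11 optimal peaks, ordered by pooled rank, the rank of the nearest peak in replicates 1, 2 and 3 is plotted on a reversed log axis with the pooled rank as a bar; labels give the gene and the summit's distance (bp) from its nearest own start, and the dashed line is rank 3545. The fzr and CycB points lie close together near rank 100, while replicate 1 falls below the other replicates at both Dp peaks.

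Other genes of the same pathways were examined in 4 lists. Of all protein-coding genes, 14.1% had an optimal and 51.2% a pooled summit within 500 bp of a start site. Of 10 further G1/S regulators, such as the kinases and Rb-family proteins, 0 had an optimal summit within 500 bp of a start site, and 6 had a pooled one. Among those without were ago, which targets Cyclin E for destruction (best pooled rank 6005), and Cdk2, the kinase partner of Cyclin E, which had no pooled summit there. The replication list had an optimal one at 3 of 20 genes (15.0%), near the share of all protein-coding genes. These were dup, the Cdt1 factor that loads the replicative helicase (rank 1032; replicate ranks 1882, 1625 and 583), RnrS, a subunit of ribonucleotide reductase (rank 1074; 1472, 774 and 1342), and dpa, the helicase subunit Mcm4 (rank 1488; 1417, 1163 and 2606). Each of these 3 was inside the top list of every replicate. Cdc45 and Cdc6, which also act in starting replication, had no pooled summit at a start.

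The mitosis list had 3 of 29 (10.3%). These were Cdc16, a subunit of the complex that fzr activates (rank 827; replicate ranks 916, 1092 and 635), trbl, which promotes the breakdown of the stg protein (rank 956; 707, 1752 and 1172), and Cdk1, the mitotic kinase (rank 3430; 3094, 3607 and 9142). The Cdk1 peak was in the top list of replicate 1 alone. The Aurora kinase genes had none, with no pooled summit at aurA and one at rank 12355 at aurB. The dREAM list, a complex that holds E2F with Myb and represses or activates cell cycle genes, had 0 of 6, among them Caf1-55 and lin-52. Together 6 of the 65 genes had an optimal peak at a start, against the 14.1% of all protein-coding genes given above. That share was 11.7% among protein-coding genes with 1 or 2 start sites, as nearly all of the 65 have. Their best pooled ranks had medians of 9632 for G1/S regulators (6 genes with a pooled summit), 14408 for replication (9), 9530 for mitosis (14) and 12379 for dREAM (4), beside 7576 for all protein-coding genes.

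**Figure D4:**
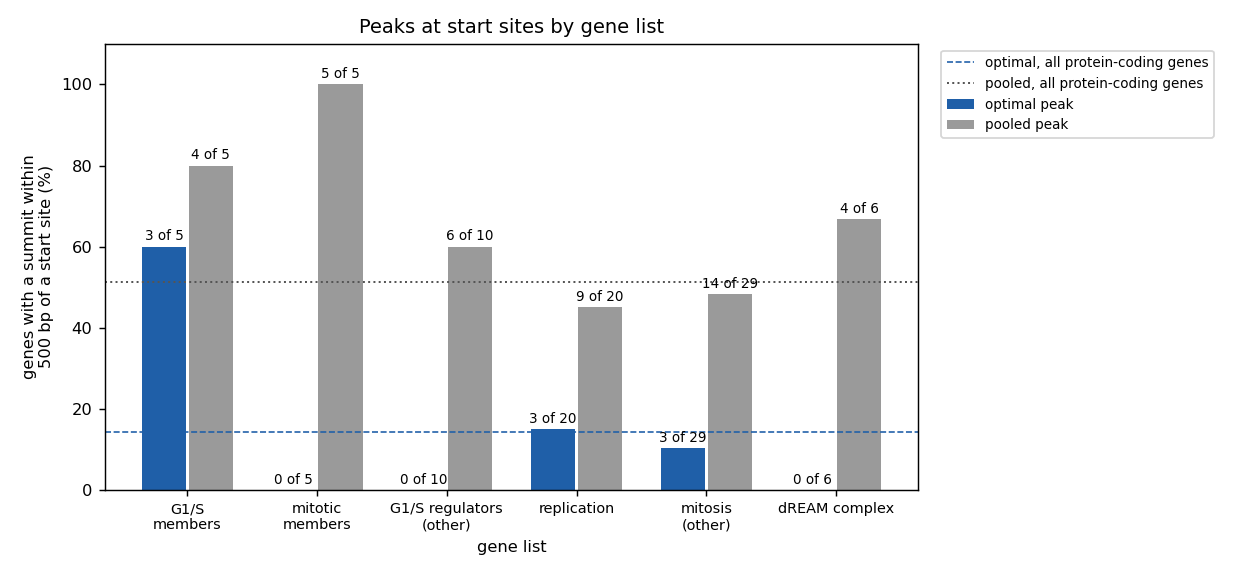
Bars give the share of genes (%) with an optimal (blue) or pooled (grey) summit within 500 bp of a start site, for the 5 G1/S members, the 5 mitotic members and 4 further lists, with counts above the bars and the shares over all protein-coding genes as horizontal lines at 14.1% and 51.2%. The blue bar of the G1/S members stands at 3 of 5 genes, and the mitotic members, G1/S regulators and dREAM have none.

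Sequence motifs were searched within 100 bases of each summit, on both strands. The E2F-type sites TTTGGCGC, TTTCCCGC, TTTGGCGG and TTTCGCGC were in none of the 11 optimal windows, and they occurred in 0.733 to 1.35% of all optimal windows. GAGAG, the letters bound by GAGA factor, was in 2 of the 11, both in the E2f1 window, with 7 matches at rank 3127 and 3 at rank 3120. It was in 28.3% of all optimal windows. CGATA was in 3 of the 11, at CycE (rank 647), CycB and fzr, and in 25.1% of all optimal windows. The longer site TATCGATA, which contains CGATA, was in none of the 11 and in 1.92% of all. CAGGTAG, the letters known for the early activator Zelda, was in 1 window, that of the E2f1 intron at rank 3137, outside its printed central stretch, and in 0.931% of all. GGTCACAC (1.64% of all) and CACGTG (2.71%) were in none. In the 86 pooled windows GAGAG was found in 30.2% and CGATA in 26.7%, against 25.7% and 23.9% of the whole pooled list. GGTCACAC was in 4 of the 86 (4.65%), against 1.17% of the whole pooled list. CAGGTAG was in 3 (3.49%), against 0.983%, and CACGTG in 3 (3.49%), against 2.67%. Of the E2F-type sites, TTTGGCGC was in 2 (2.33%), against 1.18%, TTTGGCGG was in 1 (1.16%), against 1.01%, and TTTCCCGC, TTTCGCGC and the longer TATCGATA were in none. Counts this small were not tested.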

How the data were processed

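Peak lists from 3 biological replicates of 1 group were used. Chromatin was sonicated to 200 to 800 bp, per the labels. According to the submitters' file list, the authors called peaks for each replicate and for the pooled alignments, and IDR gave the optimal list. Aligner, caller and IDR threshold: not given in the sources used here. Peaks were ranked by the deposited signal column, within a list only. That column holds no counts, so depth is unknown.

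Lists on dm6 were placed on Ensembl release 115 of the same assembly, without transposable elements, with Python 3.11.15, numpy 2.4.6, pandas 2.3.3, scipy 1.17.1 and matplotlib 3.10.9. Lists on dm3 were not used. A top list held a peak when it overlapped it by at least 1 base, and the replicate rank given is that of the overlapping peak with the nearest summit. Placement was tested on simulated data. The Wilson interval covers counting error only. Alternatives were other distances, flanks, list lengths, overlap rules and replicates left out.

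No test was made, since there is 1 group. The members, their split, the pathway lists and the motifs were chosen with earlier results of these data known. Named by rule were every member, the gene with the nearest start for each optimal peak, and per list up to 4 genes with the strongest optimal peak at a start and up to 2, first by alphabet, without one. Neighbours of weaker peaks and the E2f1 sequences were chosen after their values were seen. No sequence was printed that touches an untranslated region or lies on arm 2R. How the embryo collections were separated is not stated, so the spread between replicates may be technical.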

Additional observations from a re-analysis of the deposited data

How the results depend on the processing

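Of 61 alternative counts, 47 stayed within 1.5-fold of the value reported and 14 did not. A fall from 3 genes to 2 counted as within that limit. The mitotic count at a start was 0, so settings that only remove peaks or start sites could not change it. Such settings are among the 47, so that number does not measure stability. With a limit of 100 bp in place of 500 bp from the start, 0 of the 10 genes, 0 of the G1/S genes and 1 gene of the pathway lists had an optimal peak at a start. The counts were thus set by summits more than 100 bp from the start. The share of all protein-coding genes at 100 bp was not counted, so 0 of 10 cannot be set against it. With the 10000 highest pooled peaks in place of the optimal list, 7 of the 10 genes had one at a start (CycB3, dap, fzr and stg were added), 3 of them mitotic. That list also gave 16 pathway genes and 9 genes with a peak in the window, and the 1000 highest gave 2 pathway genes. Without flanks, 3 genes held 6 optimal peaks. Shares of all protein-coding genes were not counted at these list lengths or without flanks. The counts at those settings are therefore not set against all genes. Keeping only optimal peaks that the other replicates' top lists held, for each replicate left out in turn, gave 6 to 8 peaks in the windows: 8 without replicate 1, 6 without replicate 2 and 6 without replicate 3. The same setting gave 2 to 3 genes at a start, and E2f1 was lost without replicate 2 or 3. E2f1 was also lost with the stronger part of the optimal list and with the 1000 highest peaks, and CycE at a limit of 250 bp, each leaving 2 genes. The pooled signal still holds the replicate left out. Counts for pathway genes (5 in each case) and the protein-coding-transcript setting for each group were added after seeing the data. With top lists of 10000 peaks or whole lists, all 11 optimal peaks were held by all 3 replicates. No paired analysis was possible because there is 1 group. The own-start peak of E2f1 ranked 3127 of 3545, near the end of the list. Signal over the control and read depth could not be examined from the lists.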
